A study of Mus musculus with 12 samples.

Results

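The genes described here are 38 genes of the cell cycle and of proliferation, taken by symbol from gene tables of 48709 genes in mouse astrocytes sampled after an experimental stroke. They were treated as 4 groups by role: 9 genes of G1 entry, 10 of DNA replication, 13 of mitosis and 6 inhibitors. All 38 were among the 15571 genes with enough reads to be tested.

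In the cell cycle, growth signals raise MYC and D-type cyclins, which activate CDK4 and CDK6. These kinases phosphorylate RB, free the E2F factors and so allow the genes of S phase to be transcribed, after which MCM helicase loading, PCNA and nucleotide synthesis support DNA copying. Mitotic genes come on later, from G2, through CCAAT boxes and cell cycle homology regions. The DREAM and B-MYB complexes bind the cell cycle homology regions, while CDKN and GADD45 proteins hold the cycle back. Mature astrocytes rarely divide, and a part of them re-enters the cycle in the days after an injury.

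The astrocytes came from C57BL/6 mice of postnatal day 90 to 120, were selected from dissociated brain for the astrocyte surface antigen ACSA-2, and were collected 24 h after transient middle cerebral artery occlusion (tMCAO), which stops and then restores flow to 1 hemisphere. Every mouse carried Gfap-CreERT2 in 1 copy and a gene floxed on both alleles, with the recombinase driven by the Gfap promoter and active only after tamoxifen. Mice labelled WT (296, 297 and 474) were given corn oil, and mice labelled KO (295, 298 and 300) were given tamoxifen, so that drug and deletion cannot be told apart. Each of the 6 mice gave a library from the occluded (ipsilateral) and the opposite (contralateral) hemisphere, 12 libraries in 4 groups of 3.

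Totals ranged from 11187723 to 15780600 counts per library. Levels per gene are given as CPM, counts scaled to the size of the library with TMM factors, and levels are compared between genes only by deposited TPM, which allow for transcript length. Astrocyte markers were abundant in every group: the glutamate transporter Slc1a2 stood at 6360 ± 945, 3360 ± 272, 9360 ± 1650 and 7490 ± 2700 CPM (mean ± SD, n = 3) in WT contralateral, WT ipsilateral, KO contralateral and KO ipsilateral libraries. RNA of other cells was present too, the microglia gene Csf1r standing at 143 ± 20.3 CPM in WT contralateral libraries and 275 ± 79.8 CPM in KO contralateral ones. Mouse 296 had the sex-linked transcript pattern of a male and the other 5 mice that of females. In such bulk RNA, fewer cells of a type and less RNA per cell cannot be told apart.

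Promoter windows from RefSeq (GRCm38.p6, the mm10 assembly) were matched to 30 of the 38 genes and run from 250 bases before to 50 bases after a start. A gene counted as holding a motif if any of its windows did, and Myc and Ccnd1 had no window. E2F sites were searched as TTTGGCGC, TTTCCCGC, TTTGCCGC and TTTCGCGC, the CCAAT box as CCAAT, the cell cycle homology region as TTTGAA and TTCGAA, and the E-box of MYC as CACGTG, each on both strands. An E2F match lay in 4 of the 9 replication genes with a window (Mcm3, Mcm5, Mcm6 and Mcm7), in 1 of the 11 mitosis genes (Cdk1) and in 2.6% of 27025 genes. A cell cycle homology match lay in 9 of the 11 mitosis genes, 81.8%, beside 22.2% of the replication genes and 21.7% of all genes. A CCAAT box lay in 90.9% of the mitosis and 88.9% of the replication genes, beside 41.1% of all genes. It lay in 80% of 5 inhibitor genes and 20% of 5 G1 entry genes. An E-box lay in 8.09% of all genes and, among the members, in Cdk6, Cdk4, Tyms, Cdkn2c and Gadd45b. Such matches describe the letters of these windows and are not evidence of binding.

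The 250 bases before the start of 4 genes are printed as examples of windows with an E2F match (Mcm5 and Mcm6) and without one (Mki67 and Plk1). Capitals mark every E2F, CCAAT box and cell cycle homology match in the stretch. Mcm5 (chr8:75109259-75109508, plus strand) holds 2 E2F matches and 2 CCAAT boxes, and Mcm6 (chr1:128359706-128359955, minus strand) 3 E2F matches and 2 CCAAT boxes. Mki67 (chr7:135716380-135716629, minus strand) holds 3 CCAAT boxes and 2 cell cycle homology matches. Plk1 (chr7:122159185-122159434, plus strand) holds 1 CCAAT box here, and its cell cycle homology match lies after the start, outside the printed stretch. Overlapping E2F matches on opposite strands share bases in Mcm5 and at the first place in Mcm6.
Mcm5: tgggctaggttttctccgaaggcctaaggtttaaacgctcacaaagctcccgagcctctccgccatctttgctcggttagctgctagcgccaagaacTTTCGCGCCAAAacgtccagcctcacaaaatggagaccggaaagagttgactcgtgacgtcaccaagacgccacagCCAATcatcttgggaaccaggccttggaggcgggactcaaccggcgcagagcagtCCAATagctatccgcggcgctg
Mcm6: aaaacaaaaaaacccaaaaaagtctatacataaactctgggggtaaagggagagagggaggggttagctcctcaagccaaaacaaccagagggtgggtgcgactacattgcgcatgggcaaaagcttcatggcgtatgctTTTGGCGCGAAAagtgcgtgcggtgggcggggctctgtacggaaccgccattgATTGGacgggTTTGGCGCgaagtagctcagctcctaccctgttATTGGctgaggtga
Mki67: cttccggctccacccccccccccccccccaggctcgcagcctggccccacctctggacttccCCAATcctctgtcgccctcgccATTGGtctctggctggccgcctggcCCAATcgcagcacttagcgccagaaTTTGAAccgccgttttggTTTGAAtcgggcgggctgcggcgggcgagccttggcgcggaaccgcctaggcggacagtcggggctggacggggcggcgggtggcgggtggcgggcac
Plk1: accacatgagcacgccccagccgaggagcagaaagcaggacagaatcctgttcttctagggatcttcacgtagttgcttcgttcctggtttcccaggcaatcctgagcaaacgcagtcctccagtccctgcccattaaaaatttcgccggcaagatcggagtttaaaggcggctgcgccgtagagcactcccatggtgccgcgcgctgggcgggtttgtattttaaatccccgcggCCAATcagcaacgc

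All 38 genes were placed on mm10 by the GENCODE vM21 annotation. The 6 genes called in both genotypes lie at chr15:61985391-61990374 (Myc, plus strand), chr7:144929931-144939925 (Ccnd1, minus strand), chr2:132249162-132253314 (Pcna, minus strand), chr8:75109569-75128439 (Mcm5, plus strand), chr6:67035096-67037457 (Gadd45a, minus strand) and chr10:80930073-80932204 (Gadd45b, plus strand). The values are counts over whole genes, so they do not tell isoforms apart.

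Measured per length, the mitosis genes had the lowest summed level. Summed TPM of the 6 inhibitors ranged from 252 to 2302 over the 12 libraries and, without Cdkn1a, from 127 to 667, that of the 9 G1 entry genes from 188 to 374, that of the 10 replication genes from 209 to 360 and that of the 13 mitosis genes from 23.4 to 42.8. Cdkn1a, which encodes the CDK inhibitor p21, had the highest TPM of the 38 in all 4 groups, at 814 ± 830 in WT contralateral, 1040 ± 530 in WT ipsilateral, 174 ± 61.7 in KO contralateral and 452 ± 202 in KO ipsilateral libraries. Pcna, the sliding clamp of DNA polymerases, was among the 3 highest in each group, at 97.3 ± 11 TPM in WT contralateral and 178 ± 8.92 TPM in WT ipsilateral libraries. The proliferation marker Mki67 stood at 2.09 ± 0.793 TPM in WT contralateral and 1.72 ± 0.320 TPM in WT ipsilateral libraries, and the mitotic checkpoint kinase Bub1 was last in WT contralateral libraries at 0.323 ± 0.142 TPM. Single mitosis genes rested on 2 to 148 counts in a library, so that their relative counting error is large.

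**Figure D1:**
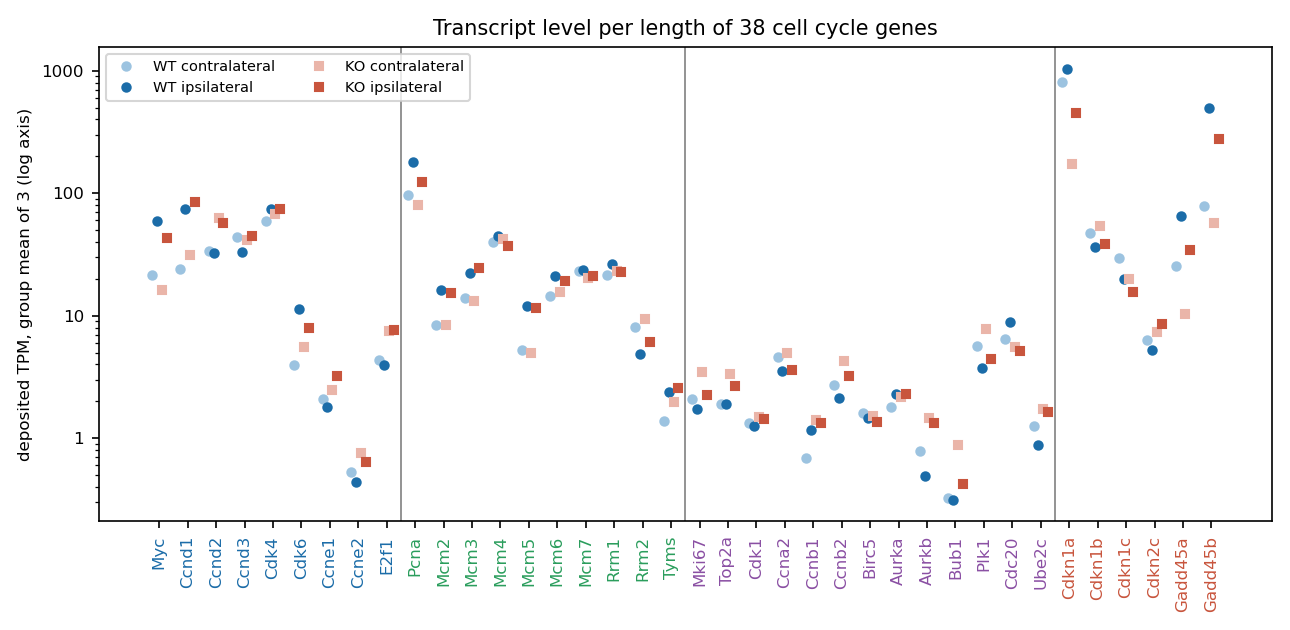
Deposited TPM of the 38 genes (log axis), each point the mean of 3 libraries of a group, with genes ordered by role and vertical lines between roles (G1 entry, replication, mitosis, inhibitors). Mitosis genes lie below 10 TPM in every group, while Cdkn1a is the highest gene in each of the 4 groups.

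The first comparison asked how these genes differed between the ipsilateral and the contralateral hemisphere. In mice labelled WT, 7 of the 38 rose and 0 fell by edgeR's quasi-likelihood test at a Benjamini-Hochberg adjusted p of 0.05, beside 9.61% of all genes tested that rose and 9.54% that fell. The 7 were Myc, Ccnd1, Cdk6, Pcna, Mcm5, Gadd45a and Gadd45b. In mice labelled KO, 6 rose and 0 fell, beside 5.45% and 0.841% of all genes. These 6 were the WT ones without Cdk6. Averaged over both genotypes, 12 rose and 2 fell, beside 17.1% and 16.1%, adding Cdk4, Mcm2, Mcm3, Mcm6 and Tyms to the risers and giving Plk1 and Cdkn1b as the genes that fell. The shares of members were not tested against those of all genes.

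By role, over both genotypes, 4 of 9 G1 entry genes and 6 of 10 replication genes rose and none of these fell, 0 of 13 mitosis genes rose and 1 fell, and 2 of 6 inhibitors rose and 1 fell. The median log2 fold change was 0.14 for G1 entry, 0.56 for replication, -0.24 for mitosis and 0.49 for inhibitors, beside -0.03 over all 15571 genes. Replication values were above 0 for 9 of 10 genes and mitosis values below 0 for 10 of 13.

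With the mouse as a block, which uses that both libraries of a mouse come from the same animal, the WT count was 15 (11 higher, 4 lower), beside 29.8% of all genes called, and the KO count 10 (all higher), beside 16%. Calls over all genes fell when some libraries were left out, and those of members with them. Without mouse 297 the WT count was 2, beside 4.17% of all genes. It was 4 without mouse 474 (7.67%), without the contralateral (11.2%) or ipsilateral (9.05%) library of mouse 297, or without the contralateral library of mouse 474 (9.81%). The KO count was 0 without mouse 295 or mouse 300, where 2 and 48 genes in all were called, or without the contralateral library of mouse 298 or of mouse 300, where 23 and 86 were. It was 2 without the contralateral and 3 without the ipsilateral library of mouse 295, beside 1.08% and 1.27% of all genes. Over both genotypes it was 7 without mouse 297 (17.8%) and 9 without mouse 295 (18.4%), in place of 14.

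**Figure D2:**
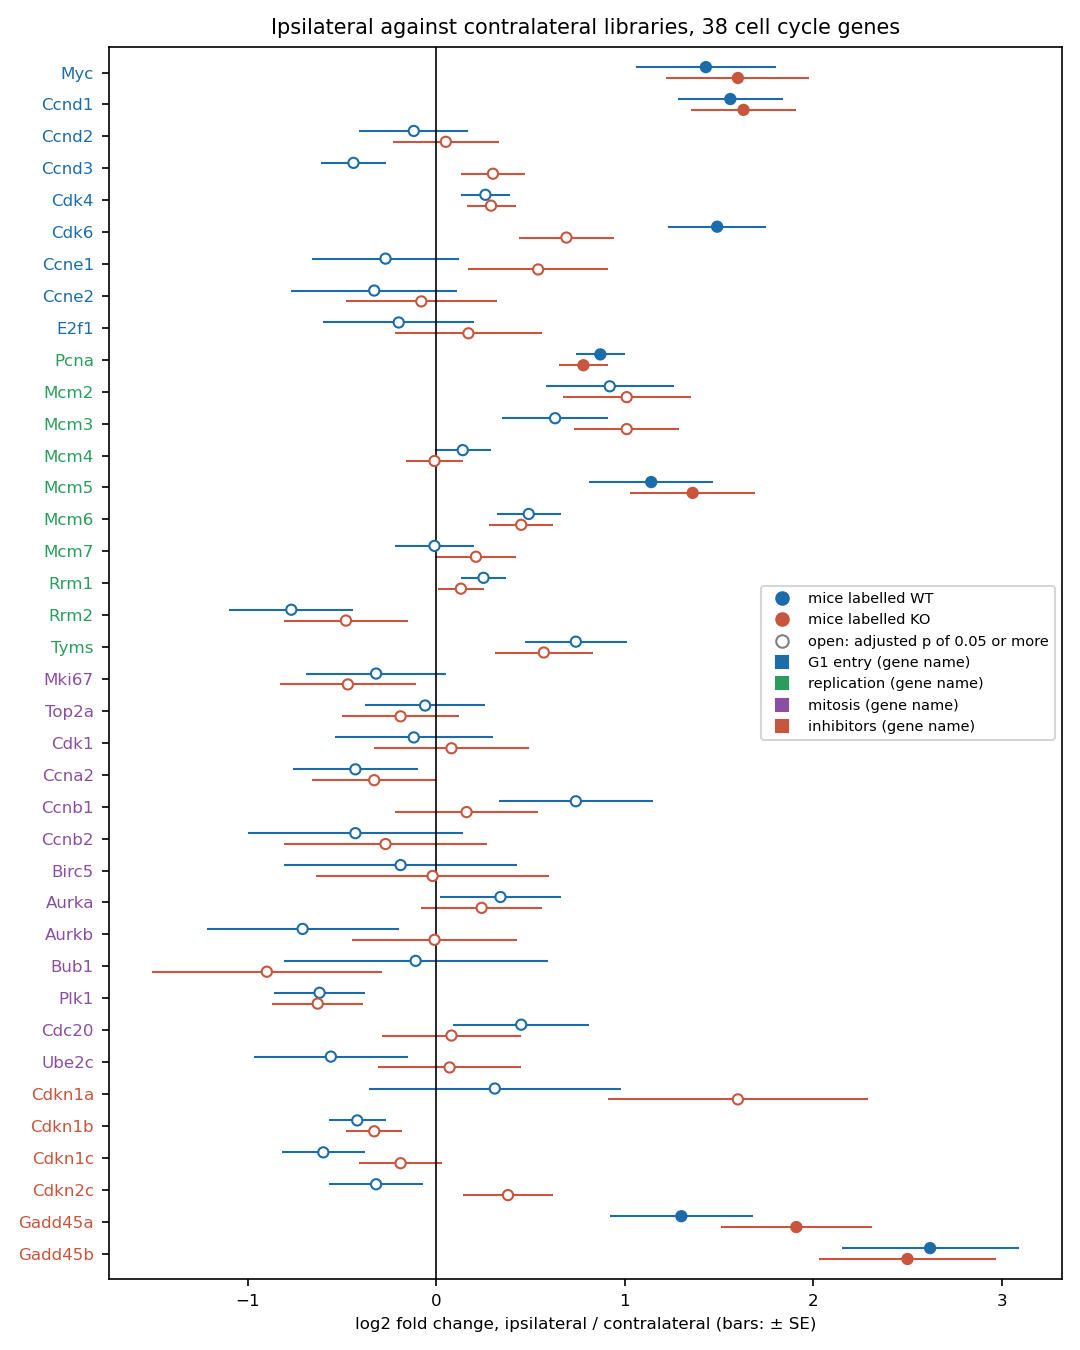
Log2 fold change of ipsilateral against contralateral libraries (x axis, bars ± SE) for the 38 genes (rows, names coloured by role) in mice labelled WT and KO, 3 libraries a group. Filled points passed an adjusted p of 0.05: Myc, Ccnd1, Pcna, Mcm5, Gadd45a and Gadd45b in both genotypes and Cdk6 in WT, while every mitosis point is open.

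Among G1 entry genes, Myc encodes the transcription factor that drives growth and cyclin genes. Its level in mice 296, 297 and 474 was 31.9, 12.2 and 11.3 CPM in contralateral and 63.9, 46.1 and 39.2 CPM in ipsilateral libraries. In mice 295, 298 and 300 it was 11.7, 12.4 and 14.6 CPM and 38.8, 26.6 and 52.4 CPM. Ipsilateral libraries were above contralateral ones without overlap in both genotypes, the contralateral library of mouse 296 being the highest of its side. Myc rose by a log2 fold change of 1.43 ± 0.37 in WT (estimate ± SE, edgeR adjusted p = 0.0214) and 1.6 ± 0.38 in KO (edgeR adjusted p = 0.0307). The WT call was lost in 6 and the KO call in 8 of 18 left-out fits (12 without a library, 6 without a mouse), the highest adjusted p being 0.145 without mouse 297 and 0.252 without mouse 300, with values of 1.25 and 1.42. The WT call was also lost with only the groups compared (edgeR adjusted p = 0.0653), and the KO call on TPM (limma adjusted p = 0.0511).

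Ccnd1 encodes cyclin D1, the activating partner of CDK4 and CDK6. Contralateral libraries of mice 296, 297 and 474 held 44.4, 28.7 and 34.1 CPM, and ipsilateral ones 97.8, 118 and 101 CPM. For mice 295, 298 and 300 the levels were 54.2, 37.0 and 35.8 CPM contralaterally and 139, 76.5 and 178 CPM ipsilaterally. Again no ipsilateral library overlapped the contralateral ones. Ccnd1 rose on the log2 scale by 1.56 ± 0.28 in WT (edgeR adjusted p = 0.00404) and 1.63 ± 0.28 in KO (edgeR adjusted p = 0.0117). Without mouse 297 the WT adjusted p by edgeR was 0.0655, and the KO call was lost without mouse 295 or 300 or the contralateral library of mouse 298 or 300.

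The other D-type cyclins did not follow Ccnd1. Ccnd2, cyclin D2, had 46.8, 84.4 and 88.6 CPM in WT contralateral and 40.2, 64.5 and 97.3 CPM in WT ipsilateral libraries, with a log2 fold change over both genotypes of -0.04 ± 0.20 (edgeR adjusted p = 0.911). Ccnd3, cyclin D3, had 88.7, 72.2 and 91.5 CPM in WT contralateral and 54.9, 65.3 and 65.2 CPM in WT ipsilateral libraries. In KO it had 71.1, 64.5 and 81.7 CPM contralaterally and 87.2, 70.4 and 110 CPM ipsilaterally. Its ipsilateral level was thus the lower one in all 3 WT mice and the higher one in all 3 KO mice. The log2 fold change of Ccnd3 was -0.44 ± 0.17 in WT (edgeR adjusted p = 0.0885, and 0.0286 with the mouse as a block) and 0.30 ± 0.17 in KO (0.277).

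Cdk6, one of the 2 catalytic partners of the D cyclins, held 11.3, 18.3 and 13.6 CPM in WT contralateral and 26.5, 42.7 and 52.2 CPM in WT ipsilateral libraries. In KO the values were 19.3, 18.5 and 18.8 CPM and 31.8, 23.4 and 35.9 CPM. All 6 mice were higher ipsilaterally and the sides did not overlap in either genotype. Fitted log2 fold changes of Cdk6 were 1.49 ± 0.26 in WT (edgeR adjusted p = 0.00322) and 0.69 ± 0.25 in KO (edgeR adjusted p = 0.116, and 0.0389 with the mouse as a block). The WT call held in all 18 left-out fits. The difference of the KO and WT values was -0.80 ± 0.36 (interaction, edgeR adjusted p = 0.948).

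Cdk4, the other partner kinase, changed by far less than Cdk6. Contralateral levels were 63.5, 59.3 and 58.8 CPM in WT and 67.8, 59.8 and 61.6 CPM in KO, and ipsilateral ones 70.7, 73.4 and 72.8 CPM in WT and 86.9, 62.1 and 81.9 CPM in KO. The sides overlapped in KO and not in WT. Over both genotypes Cdk4 rose by 0.27 ± 0.09 on the log2 scale (edgeR adjusted p = 0.0391), a call that held in 6 of 18 left-out fits and was lost with upper-quartile scaling (0.0538) and on TPM (0.123). Cdk4 shares exon bases with Tspan31, and Ccnd1 with LTO1, on the opposite strand, and reads of such pairs are told apart only by a stranded count. The late G1 genes Ccne1 and Ccne2, cyclins E1 and E2, and E2f1, an activator of S phase genes, had log2 fold changes over both genotypes of 0.14 ± 0.27, -0.20 ± 0.30 and -0.01 ± 0.28 (edgeR adjusted p = 0.726, 0.628 and 0.978). Their levels were low, at most 3.48 CPM for Ccne1, 0.945 CPM for Ccne2 and 11.3 CPM for E2f1.

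**Figure D3:**
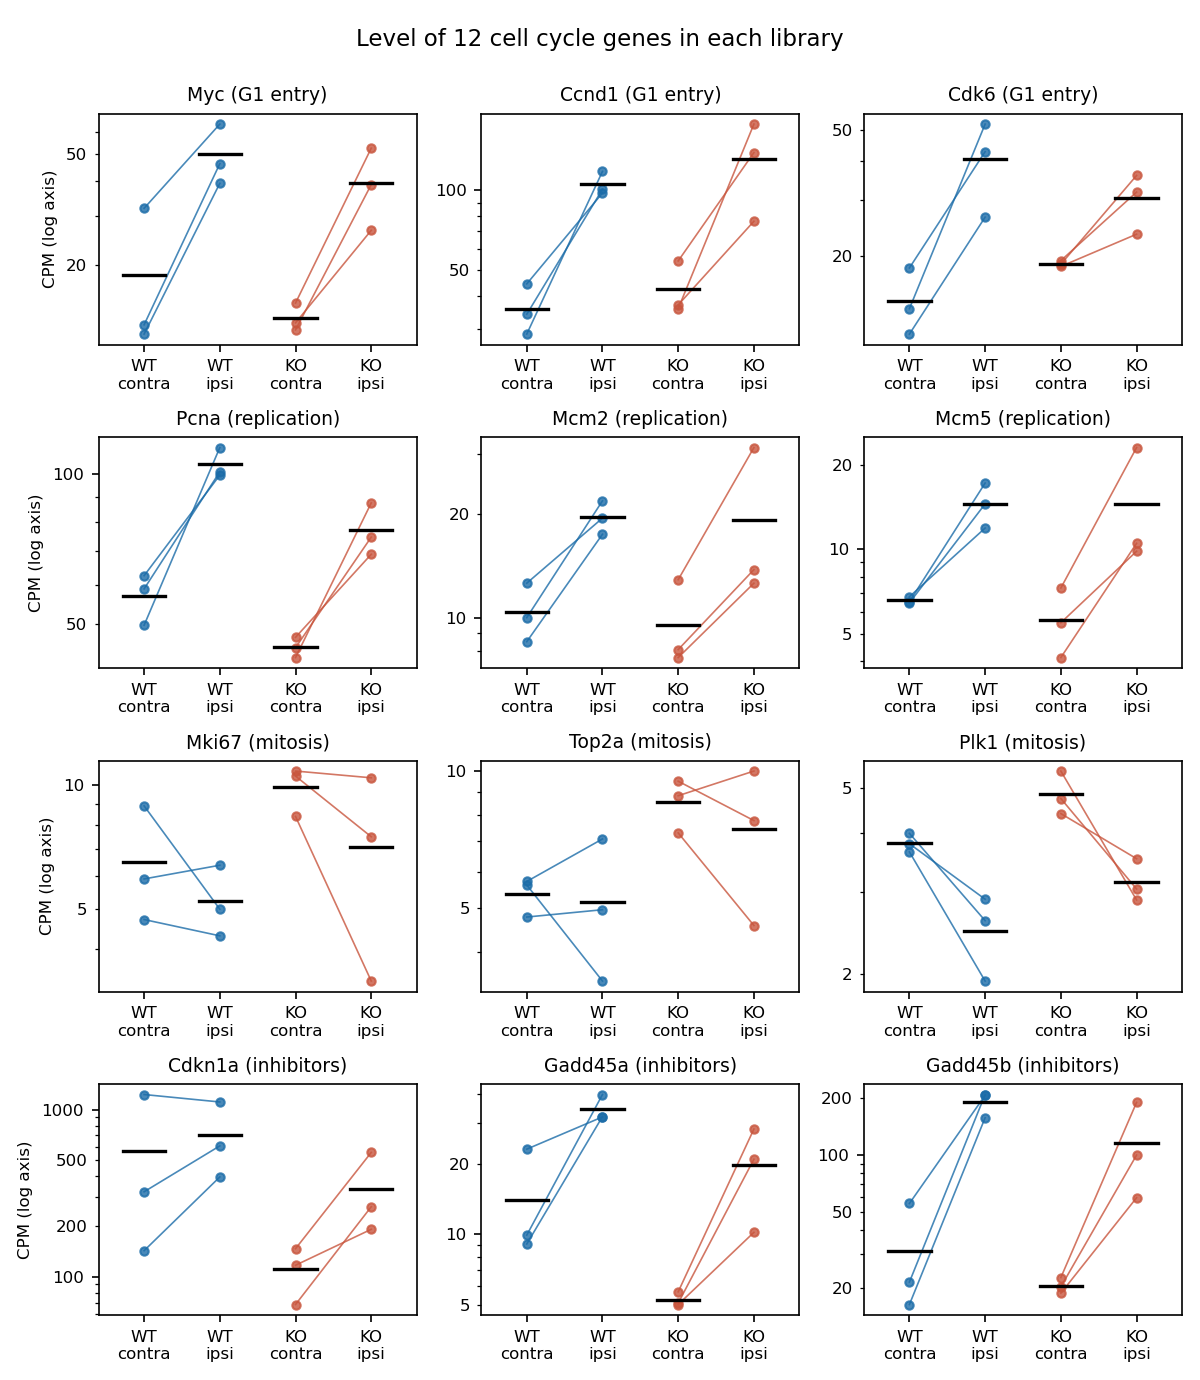
CPM of 12 cell cycle genes (log axes) in each of the 12 libraries, with a line joining both hemispheres of a mouse and a horizontal bar at the mean of 3 libraries. Lines rise in all 6 mice for Myc, Ccnd1, Cdk6, Pcna, Mcm2, Mcm5, Gadd45a and Gadd45b, fall in all 6 for Plk1, and go both ways for Mki67 and Top2a.

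Among replication genes, Pcna gave the smallest adjusted p of all 38. Its level was 62.5, 49.7 and 58.8 CPM in WT contralateral and 99.5, 113 and 101 CPM in WT ipsilateral libraries. In KO it was 44.8, 47.0 and 42.8 CPM on the contralateral and 74.7, 69.0 and 87.5 CPM on the ipsilateral side. Both sides were tight and far apart in each genotype. Pcna rose on the log2 scale by 0.87 ± 0.13 in WT (edgeR adjusted p = 0.00176) and 0.78 ± 0.13 in KO (edgeR adjusted p = 0.00941). The WT call held in all 18 left-out fits, and the KO call was lost in 4, without mouse 295 or 300 or the contralateral library of mouse 298 or 300 (highest edgeR adjusted p = 0.15, value 0.63).

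The MCM2 to MCM7 proteins form the ring of the replicative helicase, and their genes did not move as 1 block. Mcm5, whose promoter is printed above with overlapping E2F matches, had 6.78, 6.51 and 6.45 CPM in WT contralateral and 11.9, 17.2 and 14.5 CPM in WT ipsilateral libraries. In KO its levels were 7.28, 4.12 and 5.48 CPM and 23.0, 10.5 and 9.84 CPM, the ipsilateral library of mouse 295 standing highest. Each ipsilateral library was above all contralateral ones. Mcm5 rose on the log2 scale by 1.14 ± 0.33 in WT (edgeR adjusted p = 0.0303) and 1.36 ± 0.33 in KO (edgeR adjusted p = 0.0328), and over both genotypes it held in all 18 left-out fits. The separate calls were lost in 6 of these fits in WT (highest edgeR adjusted p = 0.21, without mouse 297) and in 9 in KO (0.165, without mouse 300). The KO call was also lost on TPM (limma adjusted p = 0.09) and with only the groups compared (edgeR adjusted p = 0.0532).

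Mcm2 and Mcm3 passed only over both genotypes, with log2 fold changes of 0.97 ± 0.24 and 0.82 ± 0.20 (edgeR adjusted p = 0.00983 and 0.00899), and missed the threshold without mouse 297 (0.0568 and 0.0566). Mcm2 had 12.6, 10 and 8.51 CPM in WT contralateral, 19.5, 21.9 and 17.5 CPM in WT ipsilateral, 12.9, 7.65 and 8.07 CPM in KO contralateral and 31.3, 12.6 and 13.8 CPM in KO ipsilateral libraries. For Mcm3 the same order gave 21.0, 12.9 and 13.8 CPM, 25.2, 26.5 and 22.2 CPM, 17, 11.2 and 13.5 CPM, and 41.3, 22.9 and 20 CPM. The ipsilateral library of mouse 295 again held the highest level of both genes. With the mouse as a block both genes also passed within each genotype, Mcm2 at 0.93 in WT and in KO (edgeR adjusted p = 0.00561 and 0.0147) and Mcm3 at 0.66 and 0.96 (edgeR adjusted p = 0.0311 and 0.0172).

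Mcm6, also printed above with E2F matches, rose by 0.47 ± 0.12 on the log2 scale over both genotypes (edgeR adjusted p = 0.0136). Its levels were 24.5, 20.4 and 18.3 CPM in WT contralateral, 29.6, 30.7 and 28.3 CPM in WT ipsilateral, 20.9, 19.0 and 22.1 CPM in KO contralateral and 35.9, 23.9 and 25.1 CPM in KO ipsilateral libraries. The sides did not overlap within either genotype. Within WT it passed with the mouse as a block (0.49, edgeR adjusted p = 0.0372). The call over both genotypes missed the threshold without mouse 297 (0.0685), without mouse 295 (0.0568) and on TPM (0.0544). Mcm4 and Mcm7 did not pass, at 0.06 ± 0.11 and 0.10 ± 0.15 over both genotypes (edgeR adjusted p = 0.689 and 0.644), and the interval of Mcm4 ran from -0.19 to 0.31. Mcm4 was the most abundant of the 6 in WT contralateral libraries, at 39.8 ± 8.63 TPM. Mcm7 shares exon bases with Ap4m1 and Cops6 on the opposite strand and with Mir25 and Mir93 on its own.

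The genes of nucleotide supply differed among themselves. Tyms, thymidylate synthase, had 2.35, 3.10 and 2.40 CPM in WT contralateral, 3.78, 5.23 and 4.09 CPM in WT ipsilateral, 3.85, 2.43 and 3.72 CPM in KO contralateral and 5.55, 4.36 and 4.97 CPM in KO ipsilateral libraries. It was higher ipsilaterally in 6 of 6 mice and rose by 0.66 ± 0.19 on the log2 scale (edgeR adjusted p = 0.0208), a call that held in 11 of 18 left-out fits and was lost on TPM (0.0701). Within WT it passed with the mouse as a block (0.74, edgeR adjusted p = 0.0405). Rrm1, the large subunit of ribonucleotide reductase, gave 0.19 ± 0.09 (0.104). Rrm2, its small subunit, whose level follows S phase in dividing cells, was lower ipsilaterally in 6 of 6 mice, with 10.2, 4.52 and 6.20 CPM in WT contralateral and 5.36, 3.95 and 2.96 CPM in WT ipsilateral libraries. In KO it had 7.94, 8.67 and 5.67 CPM and 4.96, 6.40 and 4.58 CPM. The sides of Rrm2 overlapped in both genotypes, and its log2 fold change was -0.62 ± 0.23 (edgeR adjusted p = 0.0587, and 0.0171 with the mouse as a block). With the block it also passed within WT, at -0.74 (edgeR adjusted p = 0.043).

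No mitosis gene rose. Mki67, which encodes the nuclear antigen Ki-67, had 5.91, 8.89 and 4.71 CPM in WT contralateral and 6.38, 4.99 and 4.30 CPM in WT ipsilateral libraries. In KO it had 10.5, 10.8 and 8.38 CPM and 7.48, 10.4 and 3.34 CPM. The sides overlapped in both genotypes, and 1 of 6 mice, 296, was higher ipsilaterally. Over both genotypes the log2 fold change of Mki67 was -0.39 ± 0.26 (edgeR adjusted p = 0.26), with a 95% interval from -0.99 to 0.20. Top2a, the topoisomerase that untangles chromosomes, gave -0.12 ± 0.22 (edgeR adjusted p = 0.693), with an interval from -0.63 to 0.39.

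Plk1, a kinase that drives entry into and passage through mitosis, was the only mitosis gene that passed. Its level in WT was 4, 3.65 and 3.80 CPM contralaterally and 2.60, 1.93 and 2.89 CPM ipsilaterally. In KO it was 4.75, 5.44 and 4.41 CPM and 3.04, 2.88 and 3.53 CPM. It was lower ipsilaterally in 6 of 6 mice with no overlap of the sides in either genotype. The log2 fold change over both genotypes was -0.62 ± 0.17 (edgeR adjusted p = 0.0163), and -0.62 ± 0.24 in WT and -0.63 ± 0.24 in KO (0.0952 and 0.128). The call rested on 24 to 74 counts per library and was lost without mouse 297 (0.0675), 295 (0.0711) or 298 (0.0776).

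The other 10 mitosis genes ran from -0.51 ± 0.47 for Bub1 to 0.45 ± 0.28 for Ccnb1, cyclin B1, over both genotypes (edgeR adjusted p = 0.429 and 0.236). Ccna2 and Ccnb2, cyclins A2 and B2, gave -0.38 ± 0.23 and -0.35 ± 0.39 (0.228 and 0.519), and Cdk1, the kinase of mitosis, gave -0.02 ± 0.30 (0.962). The kinases Aurka and Aurkb, of the spindle poles and of the centromere, gave 0.29 ± 0.23 and -0.36 ± 0.33 (0.35 and 0.428). Birc5, survivin, gave -0.10 ± 0.44 (0.88), and Cdc20 and Ube2c, which act with the anaphase-promoting complex, gave 0.27 ± 0.26 and -0.24 ± 0.28 (0.449 and 0.536). Aurka was the only one of these that was higher ipsilaterally in 6 of 6 mice, and its levels of 1.22 to 2.15 CPM overlapped between sides. Many of these intervals are wide, so smaller changes were not detectable at this depth.

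Summed TPM of the mitosis genes was lowest, 23.4, in the ipsilateral library of mouse 300, where Mki67 (3.34 CPM) and Bub1 (0.191 CPM) were also at their lowest. In that library the mean log2 CPM of 10 microglia markers was 3.36, the lowest of the 12 libraries, beside 5.26 in its contralateral partner. The 10 markers of neuroblasts and progenitors were lowest there too, at 0.80 beside 1.77, and 8 markers of oligodendrocyte precursors highest, at 3.42 beside 2.19. Neuron markers were also highest there, at 2.65 beside 0.96. The ipsilateral library of mouse 474 had nearly the same neuroblast and progenitor mean, 0.82. Its microglia mean was 5.22 and its mitosis sum 26.1 TPM. The part of such cells in the level of mitosis genes was not tested.

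Of the inhibitors, Gadd45b, a stress gene whose protein binds and inhibits CDK1 with cyclin B, had the largest fold change of the 38. It held 55.5, 21.4 and 16.3 CPM in WT contralateral and 206, 208 and 157 CPM in WT ipsilateral libraries. In KO its levels were 20.2, 18.7 and 22.6 CPM and 99.8, 59.5 and 189 CPM. The sides did not overlap in either genotype, though KO ipsilateral levels were spread widely. Gadd45b rose on the log2 scale by 2.62 ± 0.47 in WT (edgeR adjusted p = 0.00382) and 2.5 ± 0.47 in KO (edgeR adjusted p = 0.0154). The WT call was lost without mouse 297 (0.0566, value 2.34), and the KO call in 5 of 18 such fits (highest edgeR adjusted p = 0.151, without mouse 300, value 2.01).

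Gadd45a, a p53 target of the same family, had 23.2, 9.92 and 9.09 CPM in WT contralateral and 31.9, 39.8 and 32.0 CPM in WT ipsilateral libraries. In KO it had 5.07, 5 and 5.67 CPM and 21.0, 10.2 and 28.3 CPM. As with Myc, the contralateral library of mouse 296 was the highest of its side. Gadd45a rose on the log2 scale by 1.30 ± 0.38 in WT (edgeR adjusted p = 0.034) and 1.91 ± 0.40 in KO (edgeR adjusted p = 0.0206), and over both genotypes it held in all 18 left-out fits. The separate calls were lost in 8 of these in WT (highest edgeR adjusted p = 0.26, without mouse 297, value 0.98) and in 7 in KO (0.209, without mouse 300, value 1.61). With only the groups compared the WT call of Gadd45a was lost as well (edgeR adjusted p = 0.0577). Gadd45a shares exon bases with E230016M11Rik on the opposite strand.

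Cdkn1a differed widely between mice of 1 group. Its levels in mice 296, 297 and 474 were 1230, 322 and 143 CPM contralaterally and 1110, 606 and 395 CPM ipsilaterally. In mice 295, 298 and 300 they were 68.1, 117 and 147 CPM and 262, 192 and 554 CPM. Thus 5 of 6 mice were higher ipsilaterally, mouse 296 being slightly lower, and the sides overlapped in WT but not in KO. The log2 fold change of Cdkn1a was 0.31 ± 0.67 in WT (edgeR adjusted p = 0.78) and 1.6 ± 0.69 in KO (edgeR adjusted p = 0.168), and 0.96 ± 0.48 over both genotypes (edgeR adjusted p = 0.145). With the mouse as a block it passed in KO (1.53, edgeR adjusted p = 0.0292) and over both genotypes (1.14, edgeR adjusted p = 0.00849). It also passed over both without mouse 296 (1.36, edgeR adjusted p = 0.0131) or without that mouse's contralateral library (1.6, edgeR adjusted p = 0.0078).

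Mouse 296 stood apart in other measures as well. The mean log2 CPM of 10 neutrophil markers was 1.67 and 2.44 in its contralateral and ipsilateral libraries, beside -1.26 to 0.72 in the other 10 libraries. Whether neutrophil RNA, sex or another property of that mouse bore on Cdkn1a was not tested.

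Cdkn1b, the CDK inhibitor p27 that is high in resting cells, was the inhibitor that fell. Its levels were 70.0, 68.3 and 62.6 CPM in WT contralateral, 60.8, 45.4 and 44.3 CPM in WT ipsilateral, 66.4, 73.6 and 68.7 CPM in KO contralateral and 49.8, 64.9 and 51.2 CPM in KO ipsilateral libraries. Every mouse was lower ipsilaterally and the sides did not overlap within either genotype. The log2 fold change over both was -0.37 ± 0.10 (edgeR adjusted p = 0.0181), lost without mouse 297 (0.0893), 295 (0.0648) or 300 (0.0807). With the mouse as a block it also passed within WT, at -0.43 (edgeR adjusted p = 0.0219). Cdkn1c, p57 of the same family, was also lower in 6 of 6 mice, with 21.5, 19.4 and 15.1 CPM in WT contralateral and 15.3, 12 and 9.60 CPM in WT ipsilateral libraries. Its log2 fold change over both genotypes was -0.40 ± 0.15 (edgeR adjusted p = 0.0631, and 0.0115 with the mouse as a block), and within WT the block gave -0.61 (edgeR adjusted p = 0.0117). Cdkn2c, the CDK4 and CDK6 inhibitor p18, gave 0.03 ± 0.17 (0.919).

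**Figure D4:**
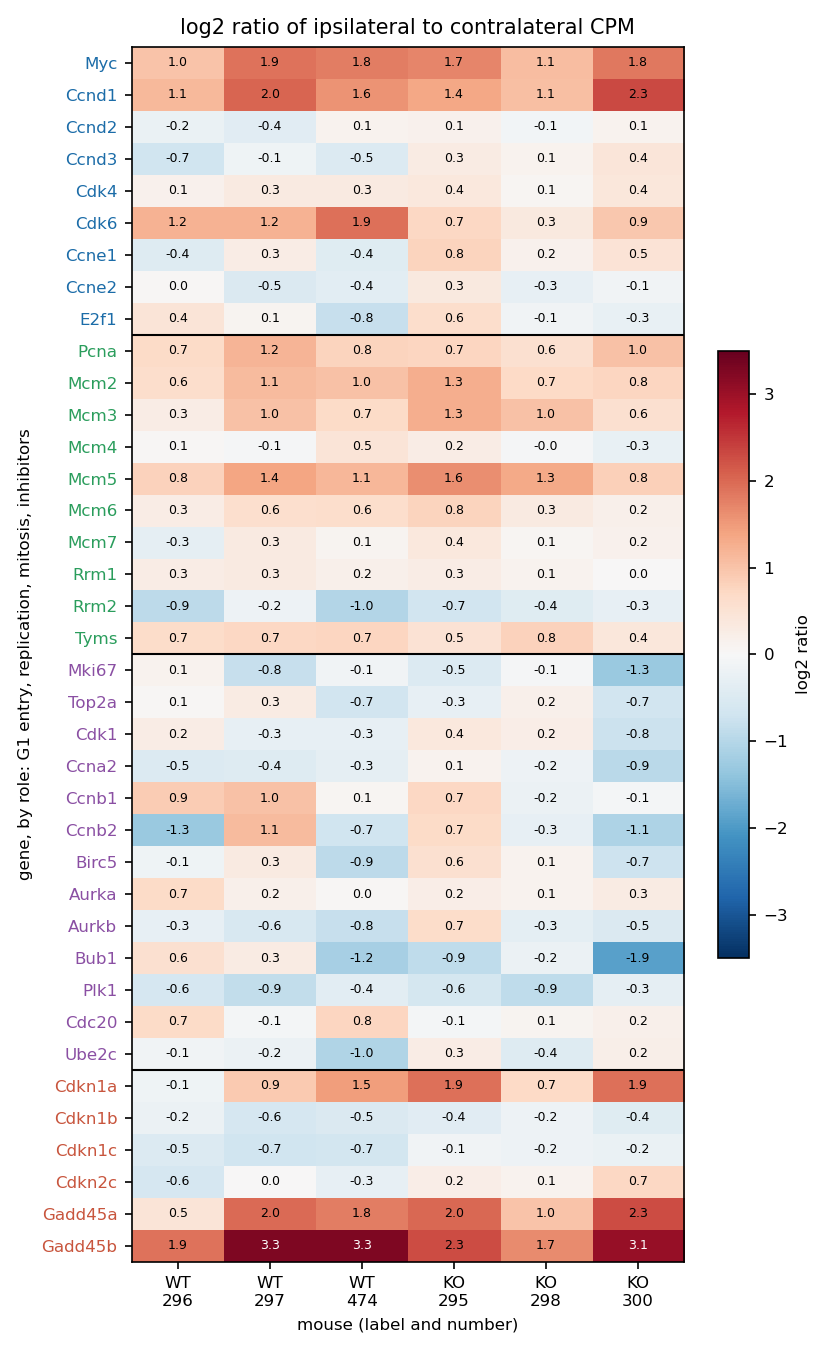
Log2 ratio of ipsilateral to contralateral CPM for the 38 genes (rows, by role) in each of the 6 mice (columns), red above 0 and blue below. Gadd45b has the highest ratio in all 6 mice, from 1.66 to 3.28, while Plk1, Cdkn1b, Cdkn1c and Rrm2 are below 0 in all 6.

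Other genes of these pathways, from lists that hold no member, are given for the same comparison over both genotypes, in which 17.1% of all genes rose and 16.1% fell. No list's share was tested against these. Of the RB, E2F and DREAM list, 1 of 19 genes tested rose and 1 fell: E2f4, a repressor E2F of resting cells, by 0.31 ± 0.10 and Mybl2, the B-MYB factor of mitotic genes, at -0.83 ± 0.22 (edgeR adjusted p = 0.0313 and 0.0136). Of other regulators of CDK activity, 3 of 18 rose and 1 fell. Cdkn2d and Gadd45g, relatives of Cdkn2c and Gadd45a, rose by 0.57 ± 0.16 and 0.73 ± 0.21 (edgeR adjusted p = 0.0176 and 0.0226), and Cdc25b, a phosphatase that activates CDK1, fell, at -0.78 ± 0.12 (0.000979). Within the genotypes Cdc25b was at -1.22 ± 0.18 in WT and -0.34 ± 0.17 in KO (edgeR adjusted p = 0.0017 and 0.234).

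Of other replication genes, 3 of 30 rose and 1 fell, beside 17.1% and 16.1% of all genes. The risers were Cdt1 (1.83 ± 0.41), which loads the MCM ring, the flap nuclease Fen1 (0.96 ± 0.26) and Dbf4 (0.66 ± 0.20), the partner of the kinase that fires origins (edgeR adjusted p = 0.00587, 0.0158 and 0.0269). Cdt1 went from 1.18 ± 0.789 to 4.45 ± 2.03 CPM in WT and from 1.11 ± 0.388 to 3.73 ± 2.13 CPM in KO libraries. Of other mitosis genes, 0 of 34 rose and 4 fell, among them the condensin subunit Ncapd2 (-0.52 ± 0.10), the microtubule regulator Stmn1 (-0.55 ± 0.15) and the centrosome kinase Nek2 (-0.83 ± 0.27, edgeR adjusted p = 0.00277, 0.0185 and 0.0318). The median over these 34 was -0.06, and over the 30 replication genes 0.16. Stmn1 was at -1.07 ± 0.22 in WT and -0.03 ± 0.22 in KO (edgeR adjusted p = 0.00738 and 0.951). The interaction passed for neither Stmn1 nor Cdc25b (edgeR adjusted p = 0.948 for both).

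A p53 list of 25 genes held mostly targets of p53, and also Trp53 itself and Mdm4. Of the 25, 14 rose and 1 fell, beside 17.1% and 16.1% of all genes. The median was 0.54, beside -0.03 over all genes. Gdf15, a stress cytokine, went from 1.04 ± 0.38 to 52.7 ± 44.2 CPM in WT and from 0.779 ± 0.531 to 49.1 ± 34.9 CPM in KO libraries (log2 fold change 5.82 ± 0.83, edgeR adjusted p = 0.000583). The death receptor Eda2r and the nuclease Aen rose by 2.62 ± 0.40 and 1.54 ± 0.21 (edgeR adjusted p = 0.000804 and 0.000482). Of the MYC network and its ribosome-building targets, 9 of 19 rose and 2 fell. Nop58, Npm1 and Ncl, nucleolar proteins of ribosome assembly, rose by 1.67 ± 0.16, 0.95 ± 0.10 and 1.02 ± 0.12 (edgeR adjusted p = 0.000136, 0.00015 and 0.000296).

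Markers of cell types moved between the hemispheres beside the cell cycle genes. In WT, 10 of 12 astrocyte markers fell, and their summed level went from 19100 to 25200 CPM contralaterally to 11000 to 12900 CPM ipsilaterally. In KO, 0 of 12 fell and 1 rose, with sums of 26100 to 31000 and 19400 to 30300 CPM. Summed microglia markers ranged from 430 to 482 CPM in WT contralateral, 660 to 1060 CPM in WT ipsilateral, 761 to 1130 CPM in KO contralateral and 278 to 1770 CPM in KO ipsilateral libraries. For the 10 monocyte and macrophage markers the same order gave 500 to 857, 570 to 1100, 589 to 843 and 858 to 1360 CPM. Fn1 made up most of these sums, at 546 ± 192, 673 ± 223, 541 ± 141 and 811 ± 204 CPM. The next most abundant, Lyz2, stood at 24.9 ± 4.56, 63.5 ± 37.3, 73.9 ± 59 and 107 ± 31.1 CPM. None of the 10 microglia markers passed within a genotype and 2 rose over both, and 3 of the monocyte markers rose over both. Over both genotypes, 9 of 12 astrocyte, 6 of 10 pericyte and smooth muscle and 6 of 8 ependymal markers fell, and 3 of 10 oligodendrocyte markers rose. None of the markers of these lists was at 0 in every library, and the part of these cells in the rise of Myc, Ccnd1 or the replication genes was not tested.

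The second comparison set mice labelled KO against mice labelled WT on each side. None of the 38 passed on the ipsilateral side by edgeR, where 4.33% of all genes were higher and 1.98% lower in KO. None passed on the contralateral side, where 0.0835% were higher and 1.41% lower. At an unadjusted p under 0.05 there were 8 and 5 members (21.1% and 13.2%), beside 21.8% and 14.3% of all genes. DESeq2 called 4 ipsilaterally (Ccnd2, Ccnd3 and Cdkn2c higher, Pcna lower), beside 11.1% of all genes, and 1 contralaterally (Gadd45a lower), beside 4.14%. Median log2 differences on the ipsilateral side were 0.53 for G1 entry, -0.05 for replication, 0.34 for mitosis and -0.49 for inhibitors, beside 0.02 over all genes.

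The smallest adjusted p on the ipsilateral side was that of Pcna, whose WT libraries (99.5 to 113 CPM) lay above the KO ones (69.0 to 87.5 CPM). The log2 difference was -0.44 ± 0.13 (edgeR adjusted p = 0.0633, 0.0174 by DESeq2 and 0.0254 on TPM by limma). It passed without the contralateral library of mouse 474 (-0.47, edgeR adjusted p = 0.0466) and when the ipsilateral library of mouse 300 was dropped (-0.56, edgeR adjusted p = 0.0442). On the contralateral side Pcna was lower in KO as well, at 42.8 to 47.0 CPM beside 49.7 to 62.5 CPM (-0.34 ± 0.13, edgeR adjusted p = 0.244).

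Ccnd2 had 114 to 136 CPM in KO ipsilateral and 40.2 to 97.3 CPM in WT ipsilateral libraries, a log2 difference of 0.92 ± 0.29 (edgeR adjusted p = 0.0814). By DESeq2 its adjusted p was 0.026, and by limma-voom with the mouse as a block 0.0416. It also passed without mouse 474 (1.29, edgeR adjusted p = 0.0175), without that mouse's ipsilateral library (1.31, edgeR adjusted p = 0.0204) and without the contralateral library of mouse 296 (0.92, edgeR adjusted p = 0.039). On the contralateral side the level was 122, 122 and 126 CPM in KO and 46.8, 84.4 and 88.6 CPM in WT, a difference of 0.75 ± 0.29 (edgeR adjusted p = 0.261). On neither side did the genotypes overlap, and WT mouse 296 was the lowest on both.

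Cdkn2c and Ccnd3 were higher in KO on the ipsilateral side by 0.80 ± 0.25 and 0.53 ± 0.17, which did not pass by edgeR (adjusted p = 0.0787 and 0.0913) and did by DESeq2 (adjusted p = 0.0297 and 0.049). Aurkb gave the largest ipsilateral difference, 1.47 ± 0.48 (edgeR adjusted p = 0.0986), on 5 to 22 counts per library. Mki67 was 0.45 ± 0.37 and Top2a 0.54 ± 0.31 higher in KO ipsilaterally (edgeR adjusted p = 0.528 and 0.356), and 0.60 ± 0.36 and 0.67 ± 0.31 contralaterally (0.467 and 0.361). Their intervals reached from -0.40 to 1.30 and from -0.19 to 1.26 on the ipsilateral side.

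On the contralateral side, where no member passed, the largest difference was that of Cdkn1a, lower in KO with a log2 value of -2.35 ± 0.71 (edgeR adjusted p = 0.15). WT mouse 474, at 143 CPM, lay within the KO range of 68.1 to 147 CPM, and the other 2 WT mice above it. Without mouse 474 the value was -2.81 (edgeR adjusted p = 0.0404). Gadd45a was lower in KO by -1.42 ± 0.40 (edgeR adjusted p = 0.116, and 0.0155 by DESeq2), with 5 to 5.67 CPM beside 9.09 to 23.2 CPM. Cdkn1c was at -0.68 ± 0.22 (edgeR adjusted p = 0.171), with 10 to 13.4 CPM in KO and 15.1 to 21.5 CPM in WT.

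**Figure D5:**
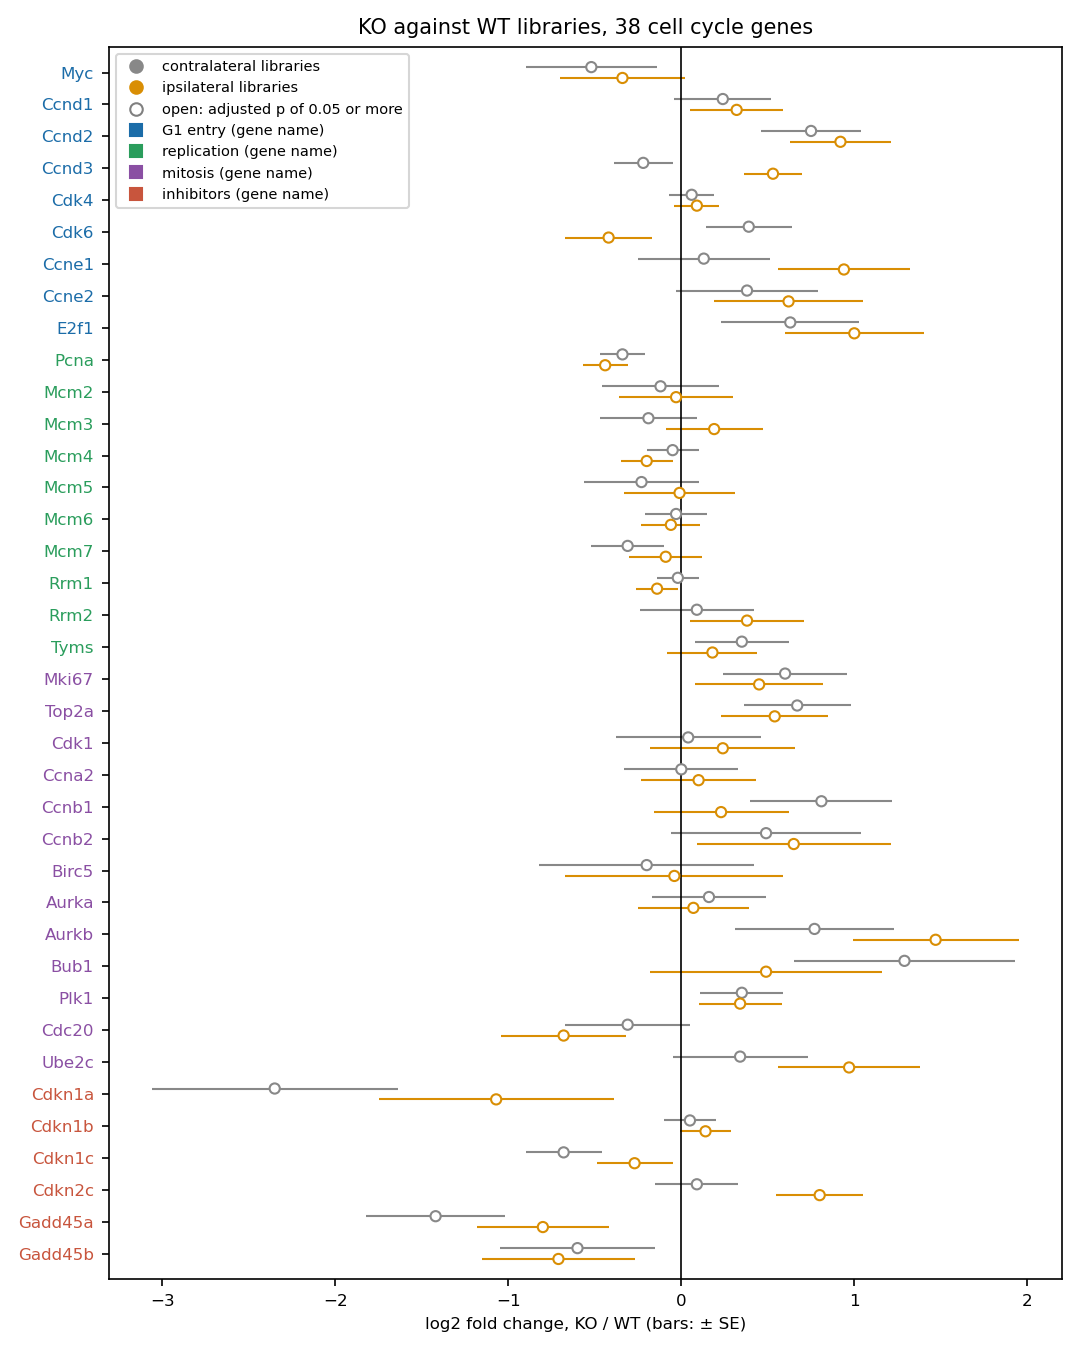
Log2 fold change of KO against WT libraries (x axis, bars ± SE) on the contralateral and the ipsilateral side for the 38 genes (rows, names coloured by role), 3 libraries a group. All points are open, since none passed an adjusted p of 0.05, and the value farthest from 0 is that of Cdkn1a on the contralateral side at -2.35.

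Marker levels differed between the genotypes on the same sides. On the ipsilateral side 9 of 12 astrocyte markers were higher in KO and 2 of 10 oligodendrocyte markers lower. On the contralateral side 4 of 10 oligodendrocyte markers were lower. Contralaterally 10 of 10 microglia and 8 of 10 monocyte and macrophage markers had a log2 difference above 0, with medians of 1.1 and 1.17. Ipsilaterally these were 9 of 10 in both lists, with medians of 0.47 and 0.54. None of either list passed on either side. Markers of neuroblasts and progenitors, cells that divide in the adult brain, summed to 174 to 197 CPM in KO contralateral and 104 to 124 CPM in WT contralateral libraries, with 1 of 7 tested called higher. On the ipsilateral side these sums were 147 to 195 and 100 to 140 CPM. Egfr made up most of these sums, at 144 ± 7.89 CPM in KO and 86.7 ± 8.81 CPM in WT contralateral libraries. Ipsilaterally Egfr stood at 131 ± 18.3 CPM in KO and 97.9 ± 19.6 CPM in WT. Of the 7 tested, 6 had a log2 difference above 0 on each side. The part of neuroblasts and progenitors, or of microglia and macrophages, in the levels of Ccnd2 or the mitosis genes was not tested.

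The third comparison asked whether the side effect differed between genotypes. None of the 38 passed in the interaction, and 0% of all genes did in either direction. By DESeq2 no member passed either, and 2 members, Ccnd3 and Cdk6, had an unadjusted p under 0.05 by edgeR (5.26%), beside 4.9% of all genes. For the 6 genes that rose in both genotypes the interaction values were 0.17 ± 0.52 for Myc, 0.07 ± 0.39 for Ccnd1, -0.09 ± 0.18 for Pcna, 0.22 ± 0.46 for Mcm5, 0.61 ± 0.54 for Gadd45a and -0.12 ± 0.63 for Gadd45b. The 95% interval was from -0.51 to 0.32 for Pcna, from -0.83 to 0.97 for Ccnd1 and from -1.03 to 1.38 for Myc.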

How the data were processed

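RNA of ACSA-2-selected astrocytes was measured in 12 libraries of 6 mice. The deposited tables give, per gene, whole-number counts, TPM and RPKM; per the submitters' processing notes the build is mm10, and the aligner, the counter and the counting strand were not given in the sources used here. RPKM were deposited by the authors and were used only in checks. Counts and RPKM-implied reads agreed within 20% of the median ratio for 77.9% of 11319 genes. The ratio was 0.457 of the median for Rrm1, 0.575 for Mcm2, 0.626 for Cdkn1a, 0.698 for Cdk1 and 0.701 for Ccnd3. For Ccnd2 it was 0.736 and for Gadd45b 0.797. None of these genes shares exon bases with another gene on its own strand. Whether their counts leave out shared reads, or the exon lengths used differ, was not tested. No 2 libraries of a group were duplicates.

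Counts were fitted in R 4.3.3 with edgeR 4.0.16 (filterByExpr with a minimum count of 10, TMM, robust quasi-likelihood, 1 term per group, all 12 libraries, 8 residual degrees of freedom), with Benjamini-Hochberg adjustment of the p-values of 15571 genes. Contrasts were ipsilateral against contralateral in each genotype and over both, KO against WT on each side, and their interaction. The SE is the log2 fold change divided by the square root of F. The 95% intervals use a t value with 8 degrees of freedom. The quasi-likelihood p-values also use prior degrees of freedom, so the intervals can be wider than the p-values imply. Alternatives were DESeq2 1.42.0, limma-voom (limma 3.58.1), other scalings and filters, limma on log2(TPM + 1) and log2(TPM + 0.1), only the groups compared, the mouse as a block, and 18 fits without a library or a mouse. Libraries with the same number are from the same mouse. Deviations from the group means correlated within mice at 0.70, -0.04, 0.44, 0.39, 0.50 and 0.20 over 12551 genes (mice 296, 297, 474, 295, 298 and 300). The edgeR procedure was run on simulated data with changes placed only in WT ipsilateral libraries. All simulated libraries were drawn independently, so that run could not check the effect of the pairing by mouse.

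All 38 members are accounted for. The rule named members called in any contrast, plus Mki67, Ccnd1, Myc and Cdkn1a, with a value in every library; other members given by library, such as Rrm2 and Cdkn1c, were chosen after their values were seen. From other lists, up to 3 genes with the smallest p over both genotypes and up to 2 abundant markers were named. The members and lists were chosen with earlier results of these data known. Promoter windows come from RefSeq. How far the floxed gene was deleted, and a marker that this rule picks, are not reported here.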

Additional observations from a re-analysis of the deposited data

Results flagged for a closer look

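Ccnd3 was picked by its signs, lower ipsilaterally in every WT mouse and higher in every KO mouse. The interaction p below uses the same values, and the share of all genes with such signs was not counted. The log2 ratio of ipsilateral to contralateral CPM was -0.69, -0.14 and -0.49 in WT mice 296, 297 and 474, and 0.29, 0.13 and 0.43 in KO mice 295, 298 and 300. The difference of the fitted side effects, KO minus WT, was 0.74 ± 0.24 (interaction, edgeR adjusted p = 0.948, unadjusted p = 0.00935), so it did not pass over all genes.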

How the results depend on the processing

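Percentages beside the counts of members called are the shares of all genes called in the same fits. For mice labelled WT the count (7) was 11 by DESeq2 (24.6%). With the mouse as a replicate block it was 15 (11 higher, 4 lower, beside 29.8%). It was 2 to 9 over the 18 fits that left out a library or a mouse (4.17% to 22.8%). For mice labelled KO (6) it was 10 with the block (16%) and 0 to 9 over the left-out fits (0.0127% to 14.4%). Over both genotypes (14) it was 17 with the block (42.6%) and 7 to 16 over the left-out fits (17.8% to 36.8%). For KO against WT ipsilaterally (0) it was 4 by DESeq2, 1 on TPM with either pseudocount, 1 by limma-voom with the mouse as a block, and 0 to 1 over the left-out fits. Contralaterally (0) it was 1 by DESeq2 (4.14%) and 0 to 1 over the left-out fits (0% to 2.47%). The interaction count was 0 in all alternatives run, the block included, where at most 0.045% of all genes passed. Beyond those given, the pairing by mouse changed no other count by more than 1.5 times. Values that did not pass changed sign for Mki67 in WT without mouse 297 (0.01, range over left-out fits -0.54 to 0.01), for Cdkn1a in WT without the ipsilateral library of mouse 296 (-0.15) or the contralateral one of mouse 474 (-0.10, range -0.15 to 1.6), and for Myc, KO against WT contralaterally, without the contralateral library of mouse 296 (0.13) or without that mouse (0.14, range -0.77 to 0.14). Scaling moved the median of all genes by at most 0.036. Mitosis genes with few counts limit what can be seen at this depth.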
